A study of Mus musculus with 31 samples.

Results

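Gonads of XY mouse embryos that had lost both Ctnnb1 and Sox9 (XY DKO) were compared with the ovaries of control XX embryos (XX Ctr), to describe what separated the XY double knockout gonad from an ovary. The comparison used the 3 XY DKO arrays and the 4 XX Ctr arrays, 7 of the 31 arrays of the study, chosen by their labels alone. Ctnnb1 encodes beta-catenin, which carries the canonical WNT signal, and Sox9 encodes the transcription factor that drives Sertoli cell formation in the testis. All gonads were taken at embryonic day 14.5 and separated from the mesonephros, and the RNA of a single pair of gonads, which the labels count as a biological replicate, was hybridised to each Affymetrix mouse array.

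Every embryo used here carried the Sf1-cre transgene, which deletes floxed alleles in somatic cells of the gonad, so germ cells kept both genes. XX Ctr embryos were Sf1-cre+/Tg; Ctnnb1+/f; Sox9+/f, and thus had 1 floxed allele of each gene. XY DKO embryos were Sf1-cre+/Tg; Ctnnb1f/f; Sox9f/f, and their replicates are numbered 2, 3 and 4 in the labels. The values of 3 further groups, with 4 arrays each, are given beside them. XY Ctr is the control testis with the same alleles as XX Ctr, XX DKO is the XX gonad with the same alleles as XY DKO, and XY Sox9KO (Sf1-cre+/Tg; Ctnnb1+/f; Sox9f/f) is the XY gonad that had lost Sox9 and kept an intact Ctnnb1 allele. XY DKO and XX Ctr differ in karyotype as well as in the deleted genes, and the share of each in a difference cannot be told apart. XY Sox9KO and XX Ctr differ in karyotype and also in Sox9, so a count of genes between them does not measure karyotype alone. Of 11318 autosomal genes, 54 differed there at a limma adjusted p under 0.05, and 2039 had an unadjusted p under 0.05.

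In the fetal testis, SRY starts Sox9 expression in the supporting cell lineage, Sertoli cells enclose the germ cells in cords, and their DHH signal supports fetal Leydig cells, which make androgen. In the fetal ovary, WNT4 and RSPO1 stabilise beta-catenin and the supporting cells become FOXL2-positive pregranulosa cells. Ovarian germ cells enter meiosis in response to retinoic acid, whereas testicular germ cells are shielded from it by CYP26B1 and pass through NODAL signalling into mitotic arrest. Markers of all these cell types were read from whole gonads, and in bulk RNA fewer cells of a type and less RNA per cell cannot be told apart.

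The XY DKO gonad held genes of both programmes at once. Fetal Leydig steroid genes and a subset of Sertoli genes were far above their ovarian levels, pregranulosa genes, WNT target genes and meiotic genes were below them, and Foxl2, Fst and Rspo1 nevertheless remained far above their testis levels. Of 11318 autosomal genes tested, 2934 (25.9%) differed between XY DKO and XX Ctr in the limma fit at an adjusted p under 0.05; 1656 (14.6%) were higher and 1278 (11.3%) lower in XY DKO. Of these, 314 were higher and 234 lower by at least 2-fold, and the median difference over all genes was 0.02. Leaving out XY DKO replicate 3, the array with the lowest median signal of all 31 (120.6 against a highest of 168.8), left 2287 genes, and leaving out XY DKO replicate 4, whose germ cell genes stood apart from the other 2 arrays, left 2678. Signals are the deposited MAS5 intensities, and a difference is XY DKO minus the other group in mean log2(signal + 16), with its standard error (SE). This scale understates the change of genes with low signals.

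Sex-linked and gonadal genes of the arrays compared fitted the labelled sex and tissue. The gonadal somatic identity gene Wt1, a zinc finger factor of the gonadal ridge, was strongly expressed in both groups. It read 4038.2, 3960.1, 3437.3 and 3374.1 in XX Ctr and 3409.3, 2745.7 and 3974.3 in XY DKO. The X inactivation transcript Xist read 7489.8 to 9200.2 in XX Ctr and 46.3 to 97.1 in XY DKO. XX Ctnnb1KO replicate 4, an array of a group not compared here, read 51.1 for Xist against its XX label; it entered the fit only through the shared estimate of spread, and 2949 genes were called without it. X- and Y-linked genes were left out of every count and list that follows.

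Of the targeted genes, Sox9 read 174.3, 11.7, 119.0 and 174.0 in XX Ctr and 34.5, 8.6 and 34.9 in XY DKO, against 929.1 ± 94.5 (SD, n = 4) in XY Ctr. Its difference from XX Ctr was -1.44 ± 0.47 (limma adjusted p = 0.0229), but XX Ctr replicate 2 lay as low as the knockouts and the call ended when any of 4 single arrays was left out (adjusted p 0.0624 to 0.145). Ctnnb1 read 11001.8, 13785.6, 12455.6 and 12884.5 in XX Ctr and 13503.4, 12848.6 and 11106.7 in XY DKO, a difference of -0.01 ± 0.07 (adjusted p = 0.966). The position of its probes relative to the deleted part is not known here, and this signal does not check the deletion.

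To place the knockout between the control organs, the 996 genes that differed at least 2-fold between XY Ctr and XX Ctr were followed, out of 4251 that differed (37.6%). Among the 505 higher in testis, 194 (38.4%) lay between the control organs and differed from both, 168 (33.3%) differed from XX Ctr only and 113 (22.4%) from XY Ctr only. Among the 491 higher in ovary, the same classes held 130 (26.5%), 197 (40.1%) and 112 (22.8%). The median gene had moved 56.0% of the way from the ovary mean to the testis mean in the first set (quartiles 34.0% and 77.6%) and 55.3% in the second (33.0% and 75.0%). Both distances in these shares use the XX Ctr arrays, and they are a description without a test. The spread around the median was wide, and the cell type lists below show which genes lay near each end. Their counts against XX Ctr stand beside 14.6% of all genes called higher and 11.3% called lower.

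**Figure D1:**
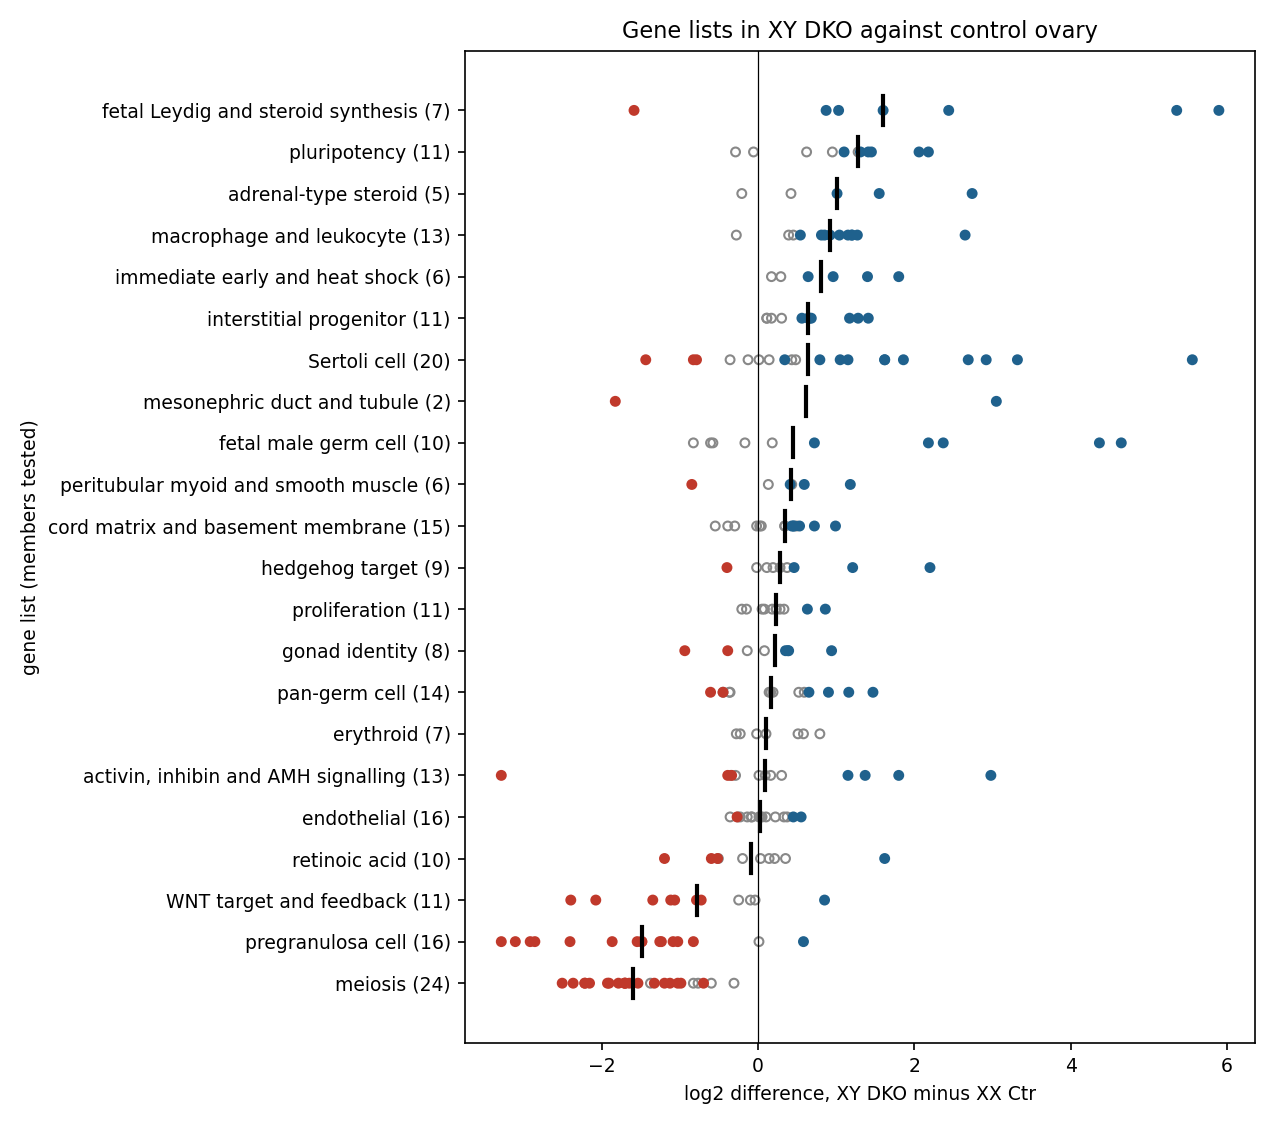
Difference between XY DKO (n = 3) and XX Ctr (n = 4) in mean log2(signal + 16) for every tested member of the 22 gene lists. Filled points passed the limma test (blue higher, red lower in XY DKO), open grey points did not, and the black tick is the list median. The meiosis and pregranulosa lists sit left of 0, with medians of -1.60 and -1.49, and the fetal Leydig list sits right of it, with a median of 1.60.

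Sertoli cell genes split into members that were high in XY DKO and members that stayed at the ovarian level. Of 24 Sertoli genes listed, 20 were tested, 11 were higher than in XX Ctr and 3 lower, with a median difference of 0.64. The 3 lower members include Sox9 itself, which the genotype deletes. Between XY DKO and XY Ctr 1946 genes differed (17.2%), 848 lower (7.49%) and 1098 higher (9.70%) in XY DKO. Of the 20 Sertoli genes, 14, again with the deleted Sox9, were lower than in the testis and 1 was higher, with a median of -1.34. The higher member was Cst12, which exceeded the testis by 1.91 and the ovary by 1.05, and it is among the 11 above the ovary.

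The 17-beta hydroxysteroid dehydrogenases, which turn androstenedione into testosterone in fetal Sertoli cells, gave the largest Sertoli differences. Hsd17b3 read 25.2, 18.6, 5.9 and 12.1 in XX Ctr and 1492.0, 1153.2 and 1681.6 in XY DKO, with 2655.7 ± 221.3 in XY Ctr. The difference was 5.56 ± 0.27, 47.1-fold (limma adjusted p = 7.48e-16), and the groups did not overlap, which held for 3215 (28.4%) of all genes tested. Hsd17b1 read 73.6, 49.0, 42.8 and 36.6 in XX Ctr and 487.9, 635.3 and 822.2 in XY DKO, a difference of 3.32 ± 0.34. Its distance from XY Ctr was -0.40 (adjusted p = 0.459), so the testis and knockout levels were not separated.

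Dhh, Ptgds and Cst9 lay between the levels of the control organs. Dhh, the hedgehog ligand, read 44.8, 35.3, 75.0 and 28.8 in XX Ctr and 390.8, 448.6 and 468.1 in XY DKO, 7.55-fold higher (difference 2.92 ± 0.18). Its testis level was 2247.7 ± 163.8, so the knockout also lay 2.33 ± 0.18 below the testis on the log2 scale. Ptgds, which makes prostaglandin D2, read 197.0, 195.5, 368.1 and 213.5 against 1504.6, 1900.9 and 1435.6 (2.69 ± 0.24), and the protease inhibitor Cst9 read 141.7, 161.9, 172.1 and 182.0 against 577.5, 531.2 and 832.8 (1.86 ± 0.15). Testis levels of Ptgds and Cst9 were several fold higher still, at 8284.4 ± 1100.3 and 6314.8 ± 659.9. Inhbb, the inhibin beta B subunit, and the pantetheinase Vnn1 were instead close to the testis level: Inhbb read 3868.3, 4173.9 and 4033.2 in XY DKO beside 4041.5 ± 383.9 in XY Ctr and 1355.0 to 2103.4 in XX Ctr, and Vnn1 read 2022.2, 2142.1 and 1781.0 beside 1687.0 ± 146.0 and 477.7 to 786.8.

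Amh, Tesc, Sox8, Fgf9 and Dmrt1 did not pass the test against the ovary, and Aard and Cldn11 were below it. Amh, the hormone that regresses the Müllerian ducts, read 13.1, 7.6, 5.8 and 48.3 in XX Ctr, 26.2, 10.4 and 12.4 in XY DKO and 214.8 ± 13.1 in XY Ctr. Its difference was 0.01 ± 0.41 from ovary (adjusted p = 0.987) and -2.87 ± 0.41 from testis (adjusted p = 3.97e-06). Tesc read 111.4 to 172.7 in XX Ctr, 102.9 to 149.0 in XY DKO and 1722.1 ± 150.8 in XY Ctr, and lay 3.63 ± 0.17 below the testis. Sox8, the SOX9 relative, differed from ovary by 0.48 ± 0.19 (adjusted p = 0.0622), Fgf9 by 0.14 (adjusted p = 0.636) and Dmrt1 by 0.43 (adjusted p = 0.345). Aard, a Sertoli transcript of the fetal testis, was below the ovary: it read 1184.8 to 1338.9 in XX Ctr, 714.3, 666.2 and 784.2 in XY DKO and 6687.2 ± 680.8 in XY Ctr, a difference from ovary of -0.83 ± 0.14 (adjusted p = 3.16e-05). Cldn11, a tight junction gene, was lower by 0.79 on the same scale (difference -0.79 ± 0.24).

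Pregranulosa genes were lower than in the ovary in 14 of 16 tested members of 18 listed, with a median of -1.49; 1 member was higher. Against the control testis 12 of the 16 were higher and 1 was lower. Fst, the activin-binding follistatin, showed the largest fall. It read 3456.3, 3269.9, 2696.4 and 3144.2 in XX Ctr and 318.9, 270.1 and 330.9 in XY DKO, 9.78-fold lower (difference -3.29 ± 0.14, limma adjusted p = 1e-17). At 66.4 ± 8.4 the testis was lower still, by 1.97 on the log2 scale.

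Foxl2, the transcription factor that maintains granulosa identity, fell less. It read 1500.4, 1576.5, 1693.3 and 1669.6 in XX Ctr and 590.0, 588.3 and 448.4 in XY DKO, a difference of -1.55 ± 0.17 (adjusted p = 1.93e-08). The testis level was 50.9 ± 9.3, so the XY DKO level exceeded it by 3.06 ± 0.17 (adjusted p = 1.51e-14), and Foxl2 had covered 33.6% of the distance from ovary to testis. Runx1, another transcription factor of the ovarian supporting lineage, read 1642.9 to 2425.0 in XX Ctr, 722.5, 719.3 and 850.7 in XY DKO and 184.0 ± 24.1 in XY Ctr, 39.1% of the distance. Lgr5, an R-spondin receptor of the ovarian surface and pregranulosa lineage, covered most of it: it read 771.1 to 1071.8 in XX Ctr, 136.6, 87.5 and 113.2 in XY DKO and 70.5 ± 17.6 in XY Ctr (difference from ovary -2.92 ± 0.17).

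The homeobox genes of the ovarian soma fell together. Msx1 differed by -2.86 ± 0.17, Msx2 by -3.11 ± 0.40 and Irx3 by -2.41 ± 0.18, and no XY DKO array of Msx1 (125.2 to 159.2) came near the ovarian 1062.5 to 1200.9. Kitl, which encodes the KIT ligand needed by germ cells, read 4284.1, 5710.1, 4574.6 and 5311.0 in XX Ctr and 1382.9, 1188.2 and 1457.3 in XY DKO (-1.87 ± 0.12), beside 1170.1 ± 175.8 in the testis, from which it was not separated (0.20, adjusted p = 0.274). Wnt4, the ovary-determining WNT ligand, read 1524.8, 1550.2, 1284.0 and 1601.8 against 755.8, 628.6 and 776.5 (-1.03 ± 0.12), also near the testis level of 674.8 ± 49.7.

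Rspo1, the secreted activator that acts upstream of beta-catenin, was the member that rose. It read 2538.4, 2809.4, 2561.6 and 2593.8 in XX Ctr and 3696.7, 3578.4 and 4560.4 in XY DKO, a difference of 0.58 ± 0.11 (adjusted p = 0.000181), with 656.3 ± 23.0 in XY Ctr. The XX DKO mean was 4221.3 and the XY Sox9KO mean 2534.7. All 3 XY DKO arrays thus exceeded every control array of either sex.

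**Figure D2:**
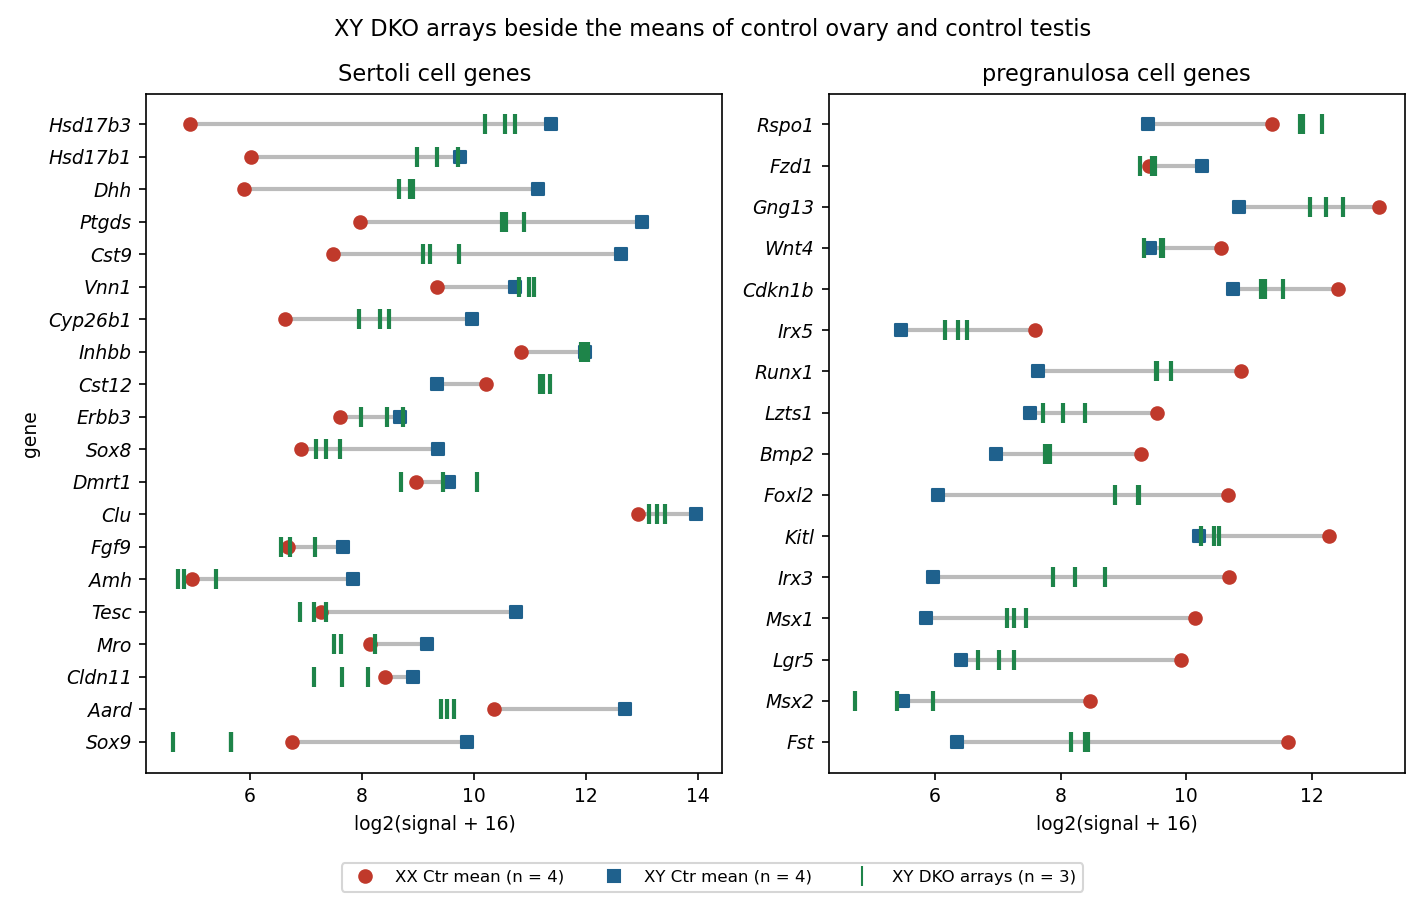
Log2(signal + 16) of the tested Sertoli genes (left) and pregranulosa genes (right): circles are XX Ctr means, squares XY Ctr means (n = 4 each, joined by a grey line) and green ticks the 3 XY DKO arrays. Inhbb lies at the testis mean, Hsd17b3 nearer to the testis mean than to the ovary mean, and Amh and Tesc at the ovary mean, while Foxl2 and Runx1 lie between the control means and Rspo1 lies beyond the ovary mean.

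Targets and feedback regulators of beta-catenin were lower as a group: 7 of 11 tested members of 15 listed fell, 1 rose, and the median was -0.79. Tnfrsf19, a TNF receptor family member induced by beta-catenin, read 2541.8, 2667.9, 2687.4 and 2872.2 in XX Ctr and 498.4, 485.6 and 505.7 in XY DKO, 5.28-fold lower (difference -2.40 ± 0.10, limma adjusted p = 1e-17), and remained 1.48 above the testis. Axin2, the standard readout of the pathway and part of its destruction complex, read 1438.3, 1698.2, 1498.2 and 1761.1 against 757.6, 742.0 and 675.8 (-1.12 ± 0.13), close to 633.6 ± 114.7 in the testis. Rnf43, a ubiquitin ligase that removes WNT receptors, fell by 2.08 (difference -2.08 ± 0.25), and Nkd2, a feedback inhibitor, differed by -1.35 ± 0.15 from ovary and lay 0.51 below the testis as well (difference from XY Ctr -0.51, adjusted p = 0.0163).

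Not every feedback gene fell. Sp5 read 615.9, 797.6 and 297.2 in XY DKO beside 136.1 in XY Ctr on average, and its difference from ovary was -0.04 (adjusted p = 0.954), with XY DKO replicate 4 low. Znrf3 differed by -0.25 (adjusted p = 0.0709) and Dkk3 by -0.10 (adjusted p = 0.718). The secreted antagonist Sfrp1 rose, from 1844.3 to 2511.3 in XX Ctr to 4374.9, 4195.4 and 3778.1 in XY DKO (0.85 ± 0.14).

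The promoters of 3 genes are shown because their genes mark the WNT, Leydig and meiotic differences described here; each runs from 250 bases before to 50 bases after a RefSeq transcription start (GRCm38.p6), 5′ to 3′ on the gene's own strand. Capitals mark the match found by a search of both strands for CTTTGAT (TCF/LEF), AAGGTCA (NR5A1 site) and ACAATGG (SOX), which do not overlap one another. Tnfrsf19 (chr14:61037938-61038237, minus strand) holds a TCF/LEF match on the reverse strand from base 49. Stra8 (chr6:34920698-34920997, plus strand) holds an NR5A1 site from base 56. Cyp11a1 (chr9:57997774-57998073, plus strand) holds none of the 3. Tnfrsf19 and Cyp11a1 have 2 promoters each, of which 1 is shown. It was the promoter with the most matches, or the first by position where they tied, so the Tnfrsf19 promoter was chosen for its match. The promoter of the Sertoli gene Hsd17b3 was also searched and holds none of the 3.
Tnfrsf19: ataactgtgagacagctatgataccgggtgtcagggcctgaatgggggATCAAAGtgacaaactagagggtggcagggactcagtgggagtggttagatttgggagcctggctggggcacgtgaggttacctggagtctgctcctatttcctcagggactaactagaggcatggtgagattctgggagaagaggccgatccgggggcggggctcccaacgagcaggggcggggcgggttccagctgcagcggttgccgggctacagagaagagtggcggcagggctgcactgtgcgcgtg
Cyp11a1: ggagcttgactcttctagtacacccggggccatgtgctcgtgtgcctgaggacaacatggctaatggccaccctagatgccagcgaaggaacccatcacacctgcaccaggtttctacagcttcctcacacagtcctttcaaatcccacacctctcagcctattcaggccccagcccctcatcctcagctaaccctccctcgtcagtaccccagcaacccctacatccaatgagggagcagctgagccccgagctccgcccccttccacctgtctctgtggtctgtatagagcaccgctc
Stra8: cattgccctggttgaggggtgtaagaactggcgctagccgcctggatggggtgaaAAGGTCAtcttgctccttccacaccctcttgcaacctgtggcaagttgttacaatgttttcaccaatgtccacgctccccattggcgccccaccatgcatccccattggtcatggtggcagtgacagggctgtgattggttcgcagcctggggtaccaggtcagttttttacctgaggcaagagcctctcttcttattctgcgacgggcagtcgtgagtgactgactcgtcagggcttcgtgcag

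As a description, CTTTGAT was in 1 of 11 promoters of the WNT genes called lower (9.09%) and in 3.73% of all 32851 promoters. AAGGTCA was in 1 of 19 promoters of the meiotic genes called lower (5.26%), in 0 of the 4 promoters found for the 6 Leydig genes called higher, and in 4.72% of all. ACAATGG was in 0 of 7 promoters of Sertoli genes called higher and in 3.66% of all. Among all genes called higher or lower, the 3 motifs were in 1.75% to 2.99% of promoters.

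Genes of fetal Leydig cells and steroid synthesis had the highest median of the 22 lists. All 7 members tested of 16 listed differed from XX Ctr, 6 higher and 1 lower, with a median of 1.60; Insl3 and Lhcgr were not analysed here. Cyp11a1, the side-chain cleavage enzyme that starts steroid synthesis, read 16.8, 23.3, 58.4 and 26.3 in XX Ctr and 2986.1, 2525.8 and 2483.3 in XY DKO. The difference was 5.90 ± 0.33, 59.5-fold (limma adjusted p = 1.8e-14), and the testis read 7901.5 ± 276.1. Other probe sets of Cyp11a1 had far lower signals and did not rise: they differed by -1.37 (mean signal 171.8) and 0.08 (mean signal 12.6). Cyp17a1, which commits the pathway to androgens, read 95.9, 113.9, 87.3 and 151.3 in XX Ctr and 6680.4, 5084.0 and 4011.1 in XY DKO (5.36 ± 0.27), beside 13128.1 ± 1533.6 in the testis.

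Star, the mitochondrial cholesterol carrier, and Hsd3b1, the 3-beta hydroxysteroid dehydrogenase, started from clearly measurable ovarian levels. Star read 323.5, 270.0, 271.9 and 299.6 in XX Ctr and 1596.8, 1526.9 and 1850.5 in XY DKO (2.44 ± 0.13), and Hsd3b1 read 1570.1, 1274.9, 989.2 and 1451.1 against 4410.1, 3793.1 and 3753.9 (1.60 ± 0.19). For neither gene did an XY DKO array overlap an XX Ctr array. The cholesterol receptor Scarb1 differed by 1.03 ± 0.09 and the electron donor Fdx1 by 0.87 ± 0.11. Agtr1a, an angiotensin II receptor, was the member that fell, from 178.7 to 275.5 in XX Ctr to 63.6, 49.3 and 86.3 in XY DKO (-1.59 ± 0.20).

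The steroid genes were also higher than in the XX gonad with the same losses. Between XY DKO and XX DKO, 573 genes differed (5.06%), 390 higher (3.45%) and 183 lower (1.62%) in XY DKO, and 6 of the 7 Leydig genes were higher, with a median of 1.12. The call count fell to 325 without XX DKO replicate 3, 362 without XX DKO replicate 2 and 344 without XY DKO replicate 4, and it was 159 with only the arrays compared and 240 with the replicate block. Cyp11a1 averaged 193.3 in XX DKO, 3.71 ± 0.33 below XY DKO (adjusted p = 4.59e-09), Cyp17a1 averaged 615.6 (3.08 ± 0.27 below) and Hsd3b1 averaged 546.7 (2.83 ± 0.19 below). Of the supporting cell genes, 7 of 20 Sertoli genes were higher in XY DKO than in XX DKO and 7 of 16 pregranulosa genes lower, among them Dhh (difference 1.24, adjusted p = 5.15e-05), Kitl (-0.76, adjusted p = 0.000139) and Foxl2 (-0.58, adjusted p = 0.0366).

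In XY Sox9KO the same genes were at the ovarian level: Cyp11a1 averaged 15.7, Hsd17b3 17.6, Dhh 36.3, Fst 3209.4 and Foxl2 1530.5. XY DKO differed from XY Sox9KO in 2465 genes (21.8%), 1242 higher (11.0%) and 1223 lower (10.8%), and in 1629 with only the arrays compared and 845 with the replicate block. XX DKO differed from XX Ctr in 1455 genes (12.9%), beside the 54 (0.477%) between XY Sox9KO and XX Ctr. These comparisons share arrays, so only their own values are set side by side.

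**Figure D3:**
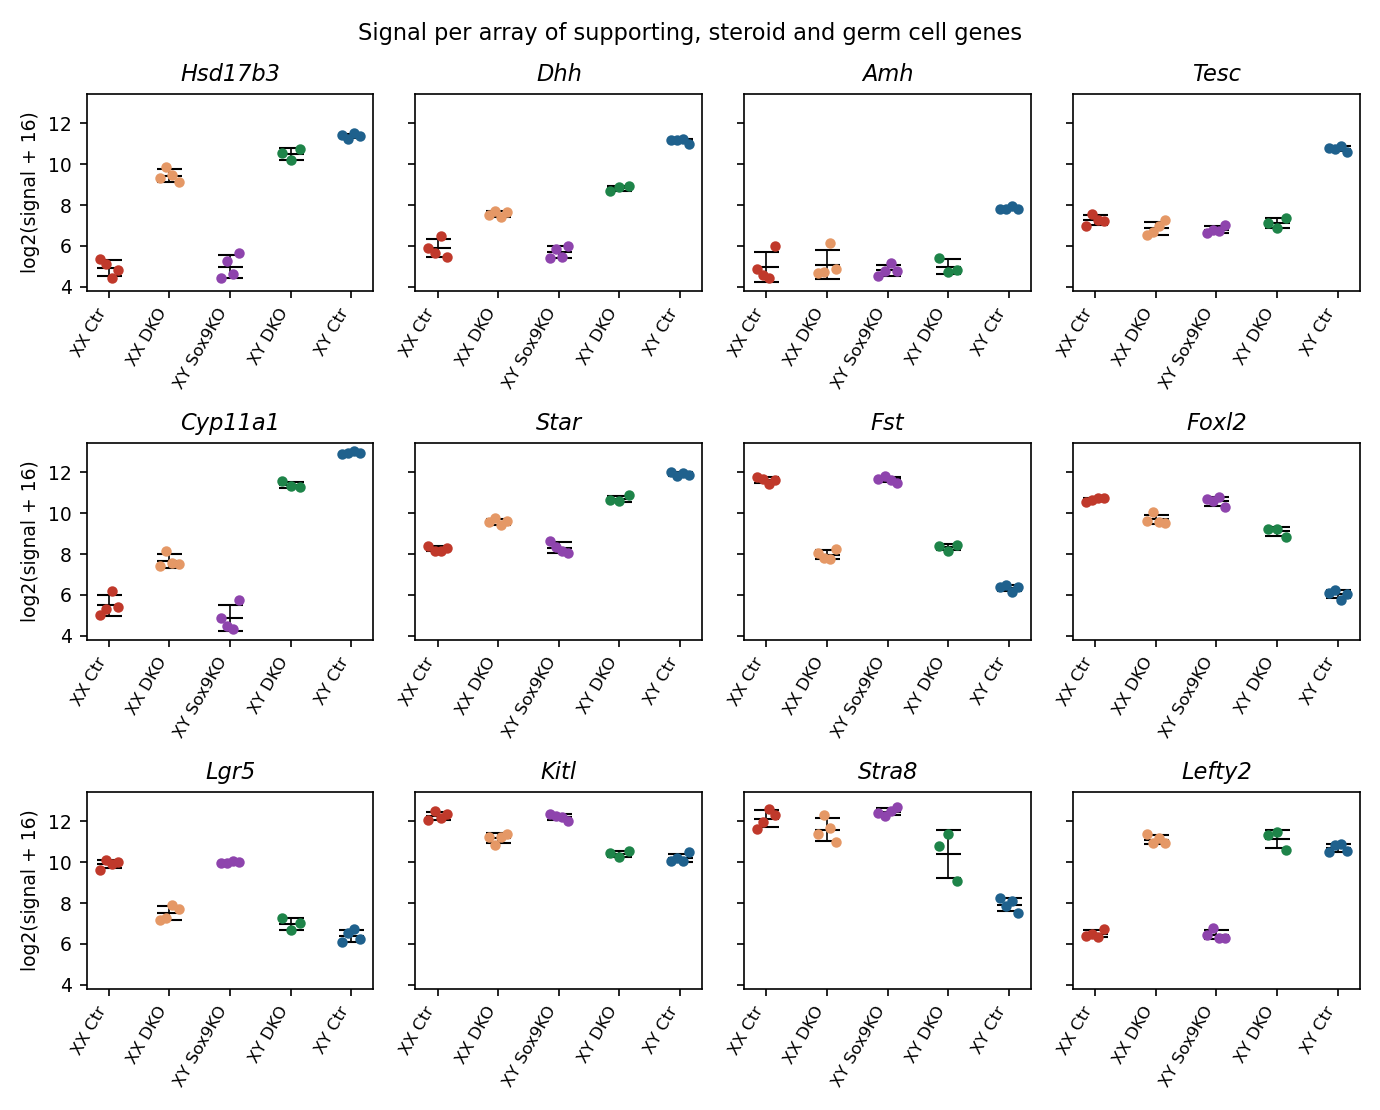
Log2(signal + 16) of 12 genes in each array of XX Ctr, XX DKO, XY Sox9KO, XY DKO and XY Ctr; points are arrays (n = 4, XY DKO n = 3) and bars the mean ± SD. Cyp11a1 and Hsd17b3 in XY DKO lie below the testis and above XX DKO, Amh and Tesc in XY DKO lie at the ovarian level, and the XY Sox9KO means lie near those of XX Ctr.

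Steroid genes better known from the adrenal cortex, which shares an Nr5a1-positive origin with the gonad, moved in the same direction. Of 5 members tested of 6 listed, 3 were higher and 0 lower (median 1.01). Cyp11b1, the 11-beta hydroxylase, read 6.3 to 14.0 in XX Ctr and 224.3, 104.6 and 178.3 in XY DKO (2.74 ± 0.32), with 434.8 ± 93.3 in the control testis. Hsd11b2, which inactivates glucocorticoid, differed by 1.55 ± 0.14 and Mc2r, the ACTH receptor, by 1.01 ± 0.21. Cyp21a1 (0.42, adjusted p = 0.468) and the MC2R partner Mrap (-0.21, adjusted p = 0.555) did not pass the test. All of the called adrenal-type genes were also higher than in XX DKO.

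Hedgehog pathway genes were mixed. Of 9 members tested of 10 listed, 3 were higher and 1 lower (median 0.28). Gli1, a transcriptional target and effector of hedgehog signalling, read 43.1, 33.9, 55.1 and 48.2 in XX Ctr, 257.4, 236.0 and 294.7 in XY DKO and 589.5 ± 85.1 in XY Ctr (difference from ovary 2.20 ± 0.31). Gli2 differed by 1.21 ± 0.16, and Ptch1, the receptor, read 1785.5 to 2293.9 in XX Ctr, 3153.1, 2866.3 and 2589.6 in XY DKO and 6354.0 ± 59.3 in XY Ctr (0.46 ± 0.09). Hhip, the hedgehog-binding antagonist, stayed near the ovary: it read 32.8 to 44.4 in XX Ctr, 52.3, 49.9 and 59.7 in XY DKO and 588.9 ± 30.4 in XY Ctr, 0.37 ± 0.24 from ovary (adjusted p = 0.27) and -3.11 ± 0.24 from testis.

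Interstitial progenitor genes were higher in 7 of 11 tested members of 13 listed, and none was lower (median 0.64). Pdgfra, the receptor that marks interstitial precursors of Leydig cells, read 2076.3, 1996.6, 1950.6 and 2030.2 in XX Ctr and 5211.3, 5762.2 and 5119.7 in XY DKO, equal to 5460.0 ± 971.7 in the testis within its spread (difference from ovary 1.41 ± 0.12). The Notch target Heyl differed by 1.28 ± 0.13 and the Notch ligand Jag1 by 1.17 ± 0.12, both still below the testis. Tcf21, a mesenchymal factor, differed by 0.68.

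Contractile genes of peritubular and smooth muscle moved both ways. Of 6 members tested of 9 listed, 3 were higher and 1 lower (median 0.42). Acta2, smooth muscle actin, read 2263.9 to 2567.6 in XX Ctr, 6113.0, 5213.2 and 5128.7 in XY DKO and 7231.6 ± 466.0 in XY Ctr (1.18 ± 0.13 from ovary). The myosin light chain Myl9 moved the other way, from 4214.7 to 6063.4 in XX Ctr to 3150.6, 2656.6 and 2675.3 (-0.85 ± 0.12). The rise of Myh11 by 0.59 was 0.04 (adjusted p = 0.869) when its probe sets were averaged.

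Genes of the cord matrix and basement membrane were higher in 6 of 15 tested members of 20 listed, and none was lower (median 0.34). The list mixes basement membrane genes with other matrix genes such as Col2a1, Acan and Col9a3. Nid1, nidogen, read 3150.7 to 3502.2 in XX Ctr and 5554.9, 5387.1 and 5569.6 in XY DKO, beside 5569.6 ± 285.8 in XY Ctr (0.72 ± 0.06 from ovary). The collagen IV chains Col4a1 and Col4a2 differed by 0.46 and 0.45 and Lamb1 by 0.53. Col9a3, a cartilage collagen of fetal Sertoli cells, did not rise (-0.55, adjusted p = 0.0869) and lay 3.93 below the testis.

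Subunits of activin and inhibin rose towards their testis levels. The list of 13, all tested, had 4 higher and 3 lower members (median 0.09), and the 3 lower ones included the receptors Amhr2 (-0.39) and Bmpr1a (-0.34). Inhba, the beta A subunit, read 237.8, 194.5, 216.8 and 180.3 in XX Ctr and 1720.9, 1805.7 and 1694.8 in XY DKO, 7.9-fold higher (2.98 ± 0.16, limma adjusted p = 4.01e-15), beside 2368.6 ± 233.9 in the testis. Inha, the alpha subunit, read 532.2 to 601.9 in XX Ctr and 1895.7, 1945.1 and 2095.4 in XY DKO (1.80 ± 0.13). Tgfbr3, the inhibin co-receptor betaglycan, differed by 1.37 ± 0.13, and the activin antagonist Fst fell as given above.

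In the retinoic acid list, 1 of 10 tested members of 14 listed was higher and 3 were lower (median -0.09). The degrading enzyme Cyp26b1 read 57.9, 77.6, 121.1 and 86.9 in XX Ctr and 340.2, 232.3 and 305.0 in XY DKO (1.62 ± 0.22), beside 999.8 ± 179.0 in the testis. Among the synthesising enzymes, Aldh1a1 (0.14, adjusted p = 0.188) and Aldh1a2 (0.03, adjusted p = 0.861) did not pass the test. Aldh1a3 was lower than in either control: it read 295.0, 190.0, 185.6 and 207.5 in XX Ctr, 93.3, 69.8 and 94.3 in XY DKO and 224.5 ± 33.7 in XY Ctr (-1.20 ± 0.18 from ovary). The binding proteins Crabp1 (-0.60) and Crabp2 (-0.52) were also lower, but without XY DKO replicate 4 their adjusted p was 0.128 and 0.314.

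Core factors of the gonadal soma moved both ways. Of 8 tested members of 9 listed, 4 were higher and 2 lower (median 0.21). Nr5a1, the steroidogenic factor itself, differed by 0.39 ± 0.11 (adjusted p = 0.00838), and this call ended without XY DKO replicate 4 (0.28, adjusted p = 0.0895) and with the mean of its probe sets (0.03, adjusted p = 0.896). Gata4 differed by 0.38 ± 0.12, with an adjusted p of 0.124 without XY DKO replicate 4. Six4, a homeobox factor of the gonadal ridge, read 127.9, 202.0, 130.2 and 189.0 in XX Ctr and 362.4, 326.5 and 275.3 in XY DKO (0.94 ± 0.31, adjusted p = 0.0232), and its adjusted p was 0.0556 to 0.0863 when XX Ctr replicate 1 or 3 or XY DKO replicate 2 or 3 was left out. Emx2, a homeobox gene of the coelomic epithelium, fell from 2240.5 to 3599.9 in XX Ctr to 1228.6, 1271.9 and 1708.0 in XY DKO (-0.94 ± 0.15), near the testis mean of 1115.0 ± 111.3.

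Meiotic genes were lower in 19 of 24 tested members of 26 listed, none was higher, and the median was -1.60. Stra8, which licenses meiotic entry in response to retinoic acid, read 3127.8, 3962.1, 6182.5 and 5079.4 in XX Ctr and 1729.1, 2612.8 and 530.1 in XY DKO, 3.28-fold lower (-1.71 ± 0.35, limma adjusted p = 0.0004). It still exceeded the 229.8 ± 52.1 of the testis, by 2.49 ± 0.35. Rec8, the meiotic cohesin, read 2401.9, 2864.5, 2804.3 and 2782.1 against 724.5, 948.5 and 517.2 (-1.91 ± 0.17), and Meioc, which stabilises the meiotic programme, read 2819.0, 2040.4, 2872.5 and 2074.7 against 532.4, 816.4 and 296.3 (-2.22 ± 0.33). The recombinase Dmc1 differed by -1.79 ± 0.37 and the synaptonemal protein Sycp3 by -1.70 ± 0.39. Sycp1, Sycp2, Syce2, Spo11 and Hormad2 did not pass the test.

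The 3 XY DKO pairs of gonads were unequal in meiotic signal. The summed signal of the meiosis list was 21283.9, 28776.4 and 11487.2 in XY DKO replicates 2, 3 and 4, against 36393.0 to 65103.8 in XX Ctr and 8942.4 to 10332.1 in XY Ctr. Replicate 4 thus lay near the testis, and 10 meiotic members were called without it, with a median of -1.12. The summed signal of the pan-germ cell list was also lowest in replicate 4, at 16304.7 beside 27745.7 and 33962.7 in replicates 2 and 3, 16799.3 to 25273.6 in XX Ctr and 17593.2 to 22815.5 in XY Ctr. The part of germ cell content in the meiotic difference was not tested. In XX DKO the meiosis sum ran from 22714.6 to 56177.9.

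General germ cell genes were not lower as a group: 4 of 14 tested members of 15 listed were higher and 2 lower (median 0.17). Ddx4, the germ cell RNA helicase, differed by 0.14 (adjusted p = 0.641) and Dazl by -0.37 without passing the test. The 2 lower members were Rnf17 (-0.61) and Hells (-0.45). Without XY DKO replicate 4 their limma adjusted p was 0.26 and 0.21. The 4 higher members were Dppa3, Prdm14, Prdm1 (0.90) and Tdrd1 (0.65). Dppa3 read 1865.5, 4240.2, 3126.1 and 4481.4 in XX Ctr and 8734.8, 10135.5 and 4373.6 in XY DKO (1.16), and Prdm14 differed by 1.47; without XY DKO replicate 3 their adjusted p was 0.0643 and 0.0629.

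Of the fetal male germ cell genes, 5 of 10 tested members of 13 listed were higher and none lower (median 0.45), and 4 of the 5 belong to the NODAL pathway. The list median was 0.29 without XY DKO replicate 3, 0.70 without XY DKO replicate 4 and 0.01 when genes below the filter on low signal were kept. Lefty2, the NODAL target and antagonist, read 68.8, 75.3, 64.2 and 90.2 in XX Ctr and 2582.3, 2796.6 and 1554.3 in XY DKO, 25-fold higher (4.65 ± 0.17, limma adjusted p = 1e-18), beside 1647.4 ± 203.3 in the testis. Lefty1 read 2.2 to 14.0 in XX Ctr and 456.7, 591.6 and 265.0 in XY DKO (4.37 ± 0.35), above the testis by 1.34 (adjusted p = 0.00697). Nodal itself read 57.0, 77.2, 99.8 and 69.4 against 493.0, 529.6 and 350.4 (2.37 ± 0.27), above the testis by 0.88 (adjusted p = 0.0198). The co-receptor Tdgf1 differed by 2.18 ± 0.39, and the piRNA pathway gene Tdrd5 by 0.72. Lefty2 also averaged 2201.5 in XX DKO and 71.7 in XY Sox9KO.

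Pluripotency genes, which ovarian germ cells switch off as they enter meiosis, were higher in 6 of 11 tested members of 12 listed and lower in 0 (median 1.28). Nanog read 99.1, 319.0, 99.9 and 252.2 in XX Ctr and 834.5, 981.8 and 530.9 in XY DKO (2.06 ± 0.48, adjusted p = 0.00188). Dppa5a differed by 1.41 ± 0.31, Tcl1 by 1.45 and Pou5f1 by 1.10 (adjusted p = 0.0318). The list's summed signal was 16927.9, 18570.0 and 9063.7 in XY DKO against 4505.2 to 9568.9 in XX Ctr, so replicate 4 overlapped the ovaries. In XX DKO the sum ran from 10604.8 to 18072.9. Against XX DKO 1 of the 11 members was higher and 0 lower, with a median of -0.03.

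**Figure D4:**
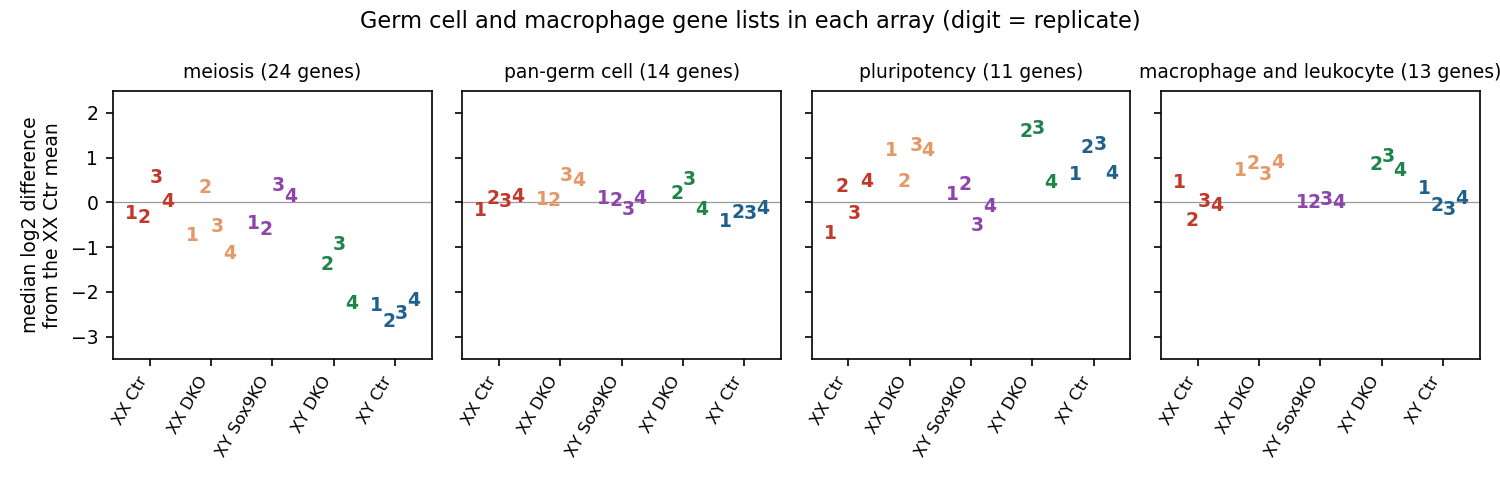
Median over list members of log2(signal + 16) minus the XX Ctr mean, per array, for the meiosis, pan-germ cell, pluripotency and macrophage lists; each digit is a replicate number and colours are groups. XY DKO replicate 4 lies with the testes for meiosis and below replicates 2 and 3 for the germ cell and pluripotency lists, whereas all 3 XY DKO arrays lie together for macrophage genes.

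Macrophage and leukocyte genes were higher in XY DKO than in either control organ. Against XX Ctr 10 of 13 tested members of 14 listed rose and none fell (median 0.92), and against XY Ctr 8 rose. C1qb, a complement component of tissue macrophages, read 1651.8, 877.2, 1271.6 and 1151.4 in XX Ctr, 2440.3, 3212.8 and 1973.8 in XY DKO and 1093.5 ± 124.8 in XY Ctr (1.04 ± 0.16 from ovary). Csf1r, the receptor macrophages need to survive, read 817.5 to 967.8 against 1617.7, 1838.7 and 1417.6 (0.81). The list's summed signal was 12109.8, 13934.9 and 12666.4 in XY DKO, 4913.9 to 9795.6 in XX Ctr, 5848.8 to 7898.7 in XY Ctr and 11465.2 to 14312.7 in XX DKO. Between XY DKO and XX DKO 0 of the 13 were called by limma, and 1 had an unadjusted p under 0.05.

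Endothelial genes centred on 0: 2 of 16 tested members were higher and 1 lower (median 0.02), beside 14.6% and 11.3% of all genes. Of 7 erythroid genes tested, 0 were called by limma and 0 had an unadjusted p under 0.05 (median 0.10). The erythroid median was 0.71 without XX Ctr replicate 1, 0.63 without XY DKO replicate 3 and between -0.01 and 0.11 without any other array, and with the replicate block 2 members were called, among them Slc4a1, the red cell anion exchanger (1.32, adjusted p = 0.00237). Stress-responsive immediate early and heat shock genes were higher in 4 of 6 tested members of 9 listed (median 0.80). Egr1 read 447.3, 551.6, 480.4 and 452.2 in XX Ctr, 1497.9, 1866.5 and 1796.7 in XY DKO and 1617.4 ± 133.5 in the control testis (1.80 ± 0.13), while Fos (0.29) and Jun (0.17) did not pass the test. Hspa1b read 165.0 to 384.2 in XX Ctr, 738.7, 587.8 and 932.3 in XY DKO and 1687.3 ± 310.5 in XY Ctr. The part of such a response in other differences was not tested. Of 11 proliferation genes tested, 2 were higher, Cdk1 by 0.86 and Aurkb by 0.63, beside 14.6% of all genes called higher.

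Of the 10 mesonephric genes listed, 2 passed the filter on low signal and moved in opposite directions. Lhx1, a transcription factor of the renal and mesonephric tubules, read 10.2, 30.7, 27.5 and 49.3 in XX Ctr and 427.1, 317.1 and 294.5 in XY DKO (3.05 ± 0.32), beside 224.3 ± 62.2 in XY Ctr. Pax8, a partner of PAX2 in the duct epithelium, was below both control organs, at 33.9, 49.4 and 55.2 against 178.0 to 233.5 in XX Ctr and 154.5 ± 26.5 in XY Ctr (-1.83 ± 0.27 from ovary).

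Beyond the lists, changes were ranked among genes that met the conditions for named genes given with the processing. The largest rise belonged to Cnmd, which encodes the angiogenesis inhibitor chondromodulin. It read 26.9, 39.5, 6.7 and 26.1 in XX Ctr and 665.9, 804.5 and 842.1 in XY DKO (4.33 ± 0.33), and at 205.2 ± 26.3 the testis was lower by 1.83. Next by size were the glutathione transferase Gsta2 (3.96), the apoptosis gene Pmaip1 (3.92), the synaptic organiser Cbln1 (3.86), the chemokine Ccl17 (3.81) and the natriuretic peptide Nppc (3.40). Sostdc1, a BMP and WNT antagonist, rose by 3.01 and still lay 2.79 below the testis. The largest fall was that of the calcium buffer Calb1, which read 1130.7, 830.9, 502.2 and 849.1 in XX Ctr and 29.2, 35.7 and 53.5 in XY DKO (-3.90 ± 0.28), followed by the homeobox gene Dlx3 (-3.25), Tmem174 (-3.21) and Tmem171 (-3.17).

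A further set of genes lay outside the range of both control organs. Against both XX Ctr and XY Ctr, 284 genes were called higher (2.51%) and 147 lower (1.30%), the latter with the deleted gene Sox9 among them. The comparisons share the XY DKO arrays. Without XY DKO replicate 3 the numbers were 188 and 97. In 240 and 120 of them no XY DKO array overlapped an array of either control, and 48 and 19 differed at least 2-fold from both. These genes were picked by their calls, so the lack of overlap is no separate support. Over all genes tested, XY DKO and XX Ctr did not overlap in 3215 (28.4%), and the share that overlapped neither control was not counted.

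Pnmt, which encodes the enzyme that makes adrenaline from noradrenaline, was higher in XY DKO than in each of the other 4 groups given here. It read 93.9, 91.0, 108.8 and 92.4 in XX Ctr and 500.9, 540.5 and 1069.4 in XY DKO, beside 164.4 ± 37.2 in XY Ctr, 141.2 in XX DKO and 89.8 in XY Sox9KO on average. Its differences were 2.59 ± 0.20 from ovary, 1.94 from testis and 2.11 from XX DKO. In a marker list chosen after these values were seen, the catecholamine enzymes Th (30.7, 24.1 and 13.3 in XY DKO) and Dbh (33.2, 38.6 and 59.0) and the granins Chga and Chgb were below the filter on low signal. Beside Pnmt, 4 genes of that list were tested: Ddc, the decarboxylase of the pathway, was higher by 0.67 (adjusted p = 0.0157), the transcription factor Gata2 fell from 788.5 to 1588.5 in XX Ctr to 411.4, 378.1 and 429.4 in XY DKO (-1.57, adjusted p = 3.36e-05), and Slc18a2 and Hand2 did not pass the test. The summed signal of the 10 genes measured other than Pnmt was 1332.7 to 1539.9 in XY DKO and 1785.9 to 2440.2 in XX Ctr. Gata2 gave the largest signal of these 10 in every XX Ctr array, so this sum does not describe the other members.

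Of the 8 largest rises outside both controls, 3 were muscle contractile genes. Tnnt2, cardiac troponin T, read 104.5, 90.6, 57.8 and 152.9 in XX Ctr, 864.8, 990.2 and 656.6 in XY DKO and 161.8 ± 17.1 in XY Ctr (2.90 ± 0.29 from ovary). Tnnc1, troponin C of slow and cardiac muscle, read 191.5, 230.5, 148.2 and 262.9 in XX Ctr, 1412.1, 1920.4 and 1409.0 in XY DKO and 237.7 ± 44.4 in XY Ctr (2.84 ± 0.30). The light chain Myl1 rose by 2.78 from ovary and 4.06 from testis and did not differ from XX DKO by the test (-0.14, adjusted p = 0.826), whereas Tnnt2 and Tnnc1 exceeded XX DKO by 1.36 and 1.46. Of 29 striated muscle genes listed after these values were seen, 15 passed the filter and 14 did not. Those below it included Myod1, Myf5, Myog, Ckm, Acta1 and Ttn. Actc1, Myh3, Tnnc2 and Mylpf passed it, and within XY DKO all were lowest in replicate 4. The list was not uniform in this: Myh6 (461.2, 331.7 and 705.3), Myh8 and Tnni3 also passed it and were highest in replicate 4. Mylpf read 536.0, 1020.4 and 149.5 in XY DKO and 217.1 to 503.9 in XX Ctr. Without Tnnt2, Tnnc1 and Myl1, which prompted the list, 12 were tested. Of the 12, 5 were higher (Tnnt1, Tnni3, Myh6, Myh7 and Myh8), beside 14.6% of all genes, none was lower and 7 did not pass the test. The summed signal of these 26 genes was 6325.9 to 9173.9 in XY DKO, 4559.9 to 6217.0 in XX Ctr and 5662.7 to 8410.8 in XX DKO.

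Among genes below both controls, the glutathione transferase Gstm6 read 1448.5, 1473.0, 1531.2 and 1535.5 in XX Ctr, 215.6, 204.6 and 263.6 in XY DKO and 2001.6 ± 93.9 in XY Ctr (-2.64 ± 0.12 from ovary and -3.05 from testis). Its relative Gstm7 differed by -1.14 and -1.68; the genes of this family are similar in sequence, so their probes may read more than 1 member. Trank1 differed by -2.58 from ovary and -1.83 from testis, the cyclic AMP phosphodiesterase Pde8b by -1.89 and -1.48, and the fatty acid desaturase Scd1 by -1.11 and -2.24.

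**Figure D5:**
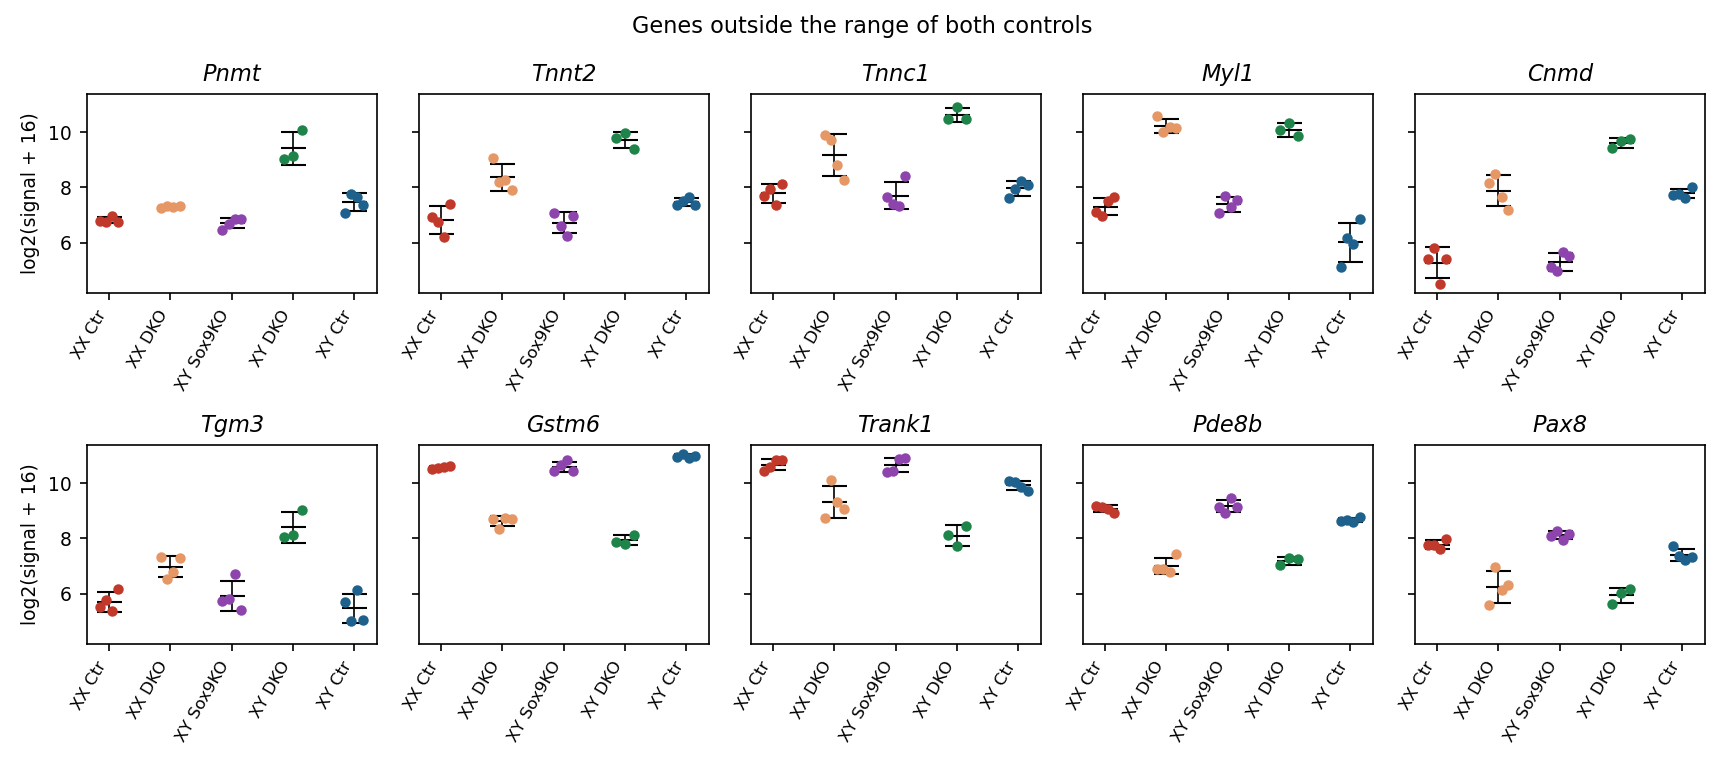
Log2(signal + 16) of 10 genes outside the range of both control organs, per array; points are arrays and bars the mean ± SD (n = 4, XY DKO n = 3). Pnmt, Tnnt2, Tnnc1, Cnmd and Tgm3 in XY DKO lie above every other group, Myl1 lies with XX DKO, and Gstm6, Trank1, Pde8b and Pax8 lie below both control organs.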

How the data were processed

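Each of the 31 Affymetrix arrays held amplified, biotin-labelled RNA (40 ng of total RNA) from a single pair of gonads. The deposited values are MAS5 intensity signals (version not given), per the submitters' processing notes, scaled by the authors to a trimmed mean of 500 as the values show; detection calls were not used here. Probe sets named with 1 gene symbol in the platform table stood for genes (34945 of 45101), the set with the highest mean for each gene. The deposited signals were put on the log2 scale with a pseudocount of 16, since low MAS5 signals vary most.

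Genes above the array median on at least 3 arrays were kept, 11779 in all. The limma package (3.58.1, in R 4.3.3) fitted 8 group means over all 31 arrays, with a trend in the prior and 23 residual degrees of freedom. Benjamini-Hochberg adjustment ran over all 11779 genes, and 0.05 was the threshold for a call. Counts cover 11318 autosomal genes; 406 X- or Y-linked and 55 unplaced or mitochondrial genes were left out. P-values measure the spread between pairs of gonads, and the number of arrays limits the precision. The fit was tested on simulated data.

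Members and lists were chosen with earlier results of these data known. Named genes were the targeted genes and up to 4 called and 3 uncalled members per list. To these were added the 10 largest changes in each direction outside the lists and the 8 largest outside both controls. Both rankings took only called genes without predicted-gene names, whose arrays did not overlap between the groups compared. The higher group mean also had to exceed the array median. Further list members were named after their values were seen. Replicate numbers do not pair the arrays: deviations of same-numbered XX Ctr and XY DKO arrays correlated at -0.06, 0.23 and -0.36. Promoters came from RefSeq. Each result was recomputed with a pseudocount of 1 or 64, quantile-normalized signals, every gene kept, probe sets averaged, the arrays compared fitted alone, a replicate block and each array left out; leaving out XX Ctnnb1KO replicate 4 was added after seeing the data.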

Additional observations from a re-analysis of the deposited data

Results flagged for a closer look

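Of 165 named genes, 11 had 1 XX Ctr array apart from the other 3, with a gap to the nearest that exceeded 0.829 of the group's range; chance gives such a gap in about 1 of 20 groups, and the 3 XY DKO arrays were too few to be examined this way. Replicate 4 was apart for Znrf3 (476.5, others 567.9 to 578.0), Tcf21 (2872.9, others 2427.7 to 2466.5), Col4a4 (96.1, others 127.1 to 130.4), Ccl17 (45.3, others 13.0 to 15.7) and Ky (44.5, others 22.2 to 23.0). Replicate 2 was apart for Lefty1 (14.0, others 2.2 to 2.8), Tdgf1 (39.4, others 7.6 to 11.0) and Car12 (33.2, others 74.6 to 85.8). Replicate 1 was apart for Tgfbr3 (1076.3, others 897.6 to 908.3) and Rec8 (2401.9, others 2782.1 to 2864.5), and replicate 3 for Ptgds (368.1, others 195.5 to 213.5). Of these genes, Znrf3 changed its call with the array left out: without XX Ctr replicate 4 its difference was -0.31 (limma adjusted p = 0.0305).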

How the results depend on the processing

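The count of genes that differed between XY DKO and XX Ctr stayed within 1.5 times under quantile normalization, pseudocounts of 1 and 64, no filter and the mean of probe sets. With only the arrays compared it was 1934 (1077 higher), and the counts were 159 against XX DKO, 1629 against XY Sox9KO and 95 below both controls, with 3 gonad identity, 2 retinoic acid and 3 pan-germ members called. Replicate numbers share only a number; with the replicate block the counts were 1790 (959 higher, 831 lower), 240, 845 and 94, the hedgehog median was 0.35 with 2 members called, and 3 cord matrix, 1 endothelial and 2 erythroid members were called. A pseudocount of 64 gave medians of 0.54 for Sertoli, -1.33 for pregranulosa, 0.70 for adrenal-type and 0.21 for hedgehog genes. Without the filter the medians were 0.48 for Sertoli, -0.57 for WNT, 0.72 for adrenal-type, 0.01 for male germ, -0.28 for mesonephric (reversed) and 0.36 for immediate early genes, as more genes with low signal enter. With the mean of probe sets they were 0.04 for gonad identity, 0.48 for Sertoli, 1.55 for adrenal-type, 0.02 for hedgehog, -0.09 for activin (reversed) and 2.70 for mesonephric genes, with 1 mesonephric and 4 proliferation members called; the cause was not tested.

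Leaving out 1 array gave 2287 to 3089 genes against XX Ctr, 325 to 609 against XX DKO, and 188 to 321 above and 97 to 178 below both controls. Members called ranged from 2 to 6 for gonad identity, 2 to 4 for retinoic acid, 2 to 6 for pan-germ, 10 to 21 for meiosis and 2 to 4 for proliferation genes. Medians ranged from 0.56 to 0.89 for Sertoli, 1.47 to 1.69 for Leydig, 0.23 to 0.35 for hedgehog, 0.25 to 0.43 for cord matrix and 0.02 to 0.19 for activin genes, and from -0.05 to 0.08 for endothelial genes, which reversed to -0.05 without XY DKO replicate 4. The low counts came without XX Ctr replicate 3 or XY DKO replicate 4 for gonad identity, XX Ctr replicate 4 or XY DKO replicate 4 for retinoic acid, and XX Ctr replicate 3 or XY DKO replicate 3 for pan-germ genes. Of 1143 values of named genes under other settings 26 lost and 11 gained a call, and of 1320 values without 1 array 34 lost and 13 gained one; 0 reversed. Low signals have no detection calls here, so folds against a group near background are imprecise.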

Other observations

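Across all 4 comparisons given above, 50 of 11318 genes were called in the same direction against XX Ctr, XY Ctr, XX DKO and XY Sox9KO. In XY DKO 31 were higher and 19 lower. The comparisons share the 3 XY DKO arrays, and the genes named here were picked after their values were seen. Among those higher, the semaphorin Sema3g differed from XX Ctr by 2.0 and from XX DKO by 0.88, the leucine-rich secreted protein Lgi2 by 2.36 and 0.95, the protease Htra1 by 1.41 and 0.68, and the sulfotransferase Chst8 by 2.80 and 1.30. Acaca, which makes malonyl-CoA, differed from XX Ctr by -0.93 and from XX DKO by -0.50, the fatty acid transporter Slc27a1 by -0.74 and -0.58, and Gpam, which starts glycerolipid synthesis, by 0.60 and 0.43. The transcription factor Tbx1 was lower than in all 4 groups, by -0.83 from XX Ctr, -1.53 from XY Ctr, -1.11 from XX DKO and -1.16 from XY Sox9KO on the log2(signal + 16) scale.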
